A study of Homo sapiens with 16 samples.

Results

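The genes described here are 9 transcription factors that are enriched in liver and help set the identity of hepatocytes: HNF4A, NR5A2, PROX1, CEBPA, CEBPB, FOXA1, FOXA2, FOXA3 and ONECUT1. They were chosen by gene name from the 58735 genes of the count table, and each name matched 1 row. Of the 9, 8 passed the filter on low counts that left 18121 genes for testing, and ONECUT1 did not. RNA was sequenced from differentiated HepaRG cells, a human hepatoma line in which hepatocyte-like cells lie beside cholangiocyte-like ones after differentiation. There were 4 groups with 4 libraries each: control cells given a vehicle of 1% BSA, cells given 30 nM formoterol, cells given fatty acids (palmitic acid at 0.25 mM plus oleic acid at 0.5 mM), and cells given formoterol together with both fatty acids, called the combination. Formoterol is a long-acting agonist of the beta2-adrenergic receptor. The treatment labels name BSA for the controls only, and any part of the vehicle in a difference from control was not tested. Treatment lasted 3 days. All groups, controls included, stayed in medium with 2% DMSO, and the growth medium also held insulin and the glucocorticoid triamcinolone acetonide. The labels describe independent replicates and do not say whether these were separate cultures, so p-values measure the spread between these samples, which may be technical.

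Hepatocyte genes are switched on by a small network of factors that bind each other's promoters as well as those of their targets. HNF4A and NR5A2 (LRH-1) are nuclear receptors: HNF4A is required for much of the hepatocyte programme, and NR5A2 acts on bile acid and cholesterol genes. FOXA1, FOXA2 and FOXA3 are forkhead pioneer factors that open chromatin at liver enhancers. CEBPA and CEBPB are basic leucine zipper factors. CEBPA is linked to the mature, metabolic state, and CEBPB to cAMP and acute phase responses. PROX1 and ONECUT1 (HNF6) are homeodomain proteins of liver development that remain in the adult organ.

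The starts of 4 transcripts are shown because their genes carry the results below: HNF4A, which is transcribed from a pair of promoters, NR5A2, and CEBPB, the member that fell. Each sequence is the 250 bases before a RefSeq transcript start (GRCh38.p14, plus strand, written 5′ to 3′). Capitals mark matches, on either strand, to the short motifs that were searched.
HNF4A upstream promoter, chr20:44355449-44355698: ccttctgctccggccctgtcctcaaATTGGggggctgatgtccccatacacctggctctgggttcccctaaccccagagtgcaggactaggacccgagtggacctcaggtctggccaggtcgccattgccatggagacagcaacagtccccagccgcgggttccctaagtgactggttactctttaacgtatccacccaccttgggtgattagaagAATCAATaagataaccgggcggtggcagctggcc
HNF4A downstream promoter, chr20:44400989-44401238: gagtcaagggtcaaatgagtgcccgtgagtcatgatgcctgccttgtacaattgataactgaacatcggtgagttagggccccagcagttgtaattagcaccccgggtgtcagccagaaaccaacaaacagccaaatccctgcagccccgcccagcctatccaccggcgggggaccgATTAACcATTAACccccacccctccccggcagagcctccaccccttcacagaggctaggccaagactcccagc
NR5A2, second listed start, chr1:200042341-200042590: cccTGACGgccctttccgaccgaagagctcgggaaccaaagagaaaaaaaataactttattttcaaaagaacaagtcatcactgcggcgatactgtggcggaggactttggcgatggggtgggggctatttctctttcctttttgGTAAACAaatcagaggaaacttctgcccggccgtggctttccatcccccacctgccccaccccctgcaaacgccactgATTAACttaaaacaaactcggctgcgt
CEBPB, second listed start, chr20:50190580-50190829: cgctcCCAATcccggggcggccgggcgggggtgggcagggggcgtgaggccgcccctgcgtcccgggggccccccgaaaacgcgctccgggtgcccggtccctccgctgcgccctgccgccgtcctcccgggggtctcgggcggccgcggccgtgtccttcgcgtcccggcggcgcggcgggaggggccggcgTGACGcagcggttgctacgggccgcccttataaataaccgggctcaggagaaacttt

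In the upstream HNF4A sequence the capitals are a CCAAT box and the HNF6 motif ATTGATT, both read on the minus strand, with the HNF6 match beginning 34 bases before the start. In the downstream HNF4A sequence, the promoter known to serve adult liver, they are 2 matches to the HNF1 core GTTAAT, read on the minus strand at 73 and 66 bases before the start. The NR5A2 sequence holds the cAMP response element core TGACG, the forkhead motif TGTTTAC on the minus strand and the HNF1 core GTTAAT on the minus strand. The CEBPB sequence holds a CCAAT box and TGACG, the latter beginning 57 bases before the start. Among 35116 RefSeq promoter windows of 300 bases (250 before to 50 after a start), ATTGATT occurs in 2.18%, GTTAAT in 6.88%, TGTTTAC in 3.42%, TGACG in 24.6% and CCAAT in 34.6%. The table held 10 windows for 7 of the 9 factors. No window of the 10 had the full element TGACGTCA (1.85% of all windows), the HNF4 motif CAAAGTCCA (0.384%), the C/EBP palindrome TTGCGCAA (0.151%) or the STAT motif TTCCNGGAA (1.15%). The windows of CEBPA and FOXA1 matched none of the motifs searched, the FOXA3 window and the other NR5A2 window held the nuclear receptor core AGGTCA (13.8%), and the ONECUT1 window had CCAAT and the E-box CACGTG (7.26%). A match is a description of letters in these windows. The gene counts do not separate transcripts, so use of one or the other HNF4A promoter was not measured.

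Libraries held 32471299 to 65673126 gene counts. Levels below are CPM (counts relative to the TMM-scaled library total), with mean ± SD, and n = 4 unless stated. The summed level of 10 hepatocyte-like markers was 23930 to 36110 CPM in controls, 52890 to 57270 with formoterol, and 47620 to 55220 with fatty acids. In the combination it was 47810 to 53130 in 3 libraries and 20870 in replicate 2, below every control. That library also had the highest summed level of 8 proliferation genes (759 CPM against 480.9 to 516.3 in the other 3), and within its group that of the progenitor-like (64.74 against 42.89 to 46.38), stellate and fibroblast-like (779.9 against 620.1 to 654.6) and endothelial markers (106.7 against 52.63 to 72.65). The proliferation sum was 198.2 to 231.4 CPM in controls, 251.8 to 278.2 with formoterol and 323.2 to 428.7 with fatty acids. The sum was above controls with each treatment alone and highest in the combination, also without replicate 2. Its relation to the changes of the factors was not tested. Of the 8 proliferation genes 3 rose with formoterol, 7 with fatty acids and 8 in the combination, by edgeR against control. Of all genes 5.76%, 8.93% and 7.58% rose, in the same order. Scaling by total counts alone gave 0 rises of the 8 with formoterol. In bulk RNA, fewer hepatocyte-like cells and less RNA per cell cannot be told apart. For the factors, combination changes are given with and without replicate 2, and the part of cell makeup in any result was not tested. Of the cholangiocyte-like markers, EPCAM was listed at 0 in all 16 libraries and CFTR had a mean under 0.1 CPM over them. The stellate and fibroblast-like marker COL1A2 was also at 0 in all 16. Exons of other genes cover neither EPCAM nor COL1A2, and the counting program is not named, so these values are not read as absence of the RNA. The summed level of the 10 cholangiocyte-like markers was 165.2 to 169.1 CPM in controls and 190.8 to 200.3 with formoterol. It was 317.6 to 371.7 with fatty acids and 261.3 to 335.2 in the combination. The markers did not move together: of 7 tested with fatty acids, 2 rose (KRT19 by 1.52, CD24 by 1.40) and 1 fell (SOX9, -0.72) by edgeR. There 8.93% of all genes rose and 7.62% fell. PTPRC, CD68, MARCO and VSIG4 of 6 macrophage and leukocyte markers, and CDH5, VWF, STAB2 and LYVE1 of 6 endothelial markers, also averaged under 0.1 CPM over the 16 libraries. Exons of other genes cover 85.8% of the exon bases of CD68, so its level may be understated. The other endothelial markers, KDR and PECAM1, were detected. The sum of the 6 was 116.8 to 133.1 CPM in controls, 38.91 to 50.57 with formoterol and 158.0 to 171.3 with fatty acids.

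HNF4A was higher with formoterol than in any other group. Controls measured 97.54, 98.41, 89.28 and 95.88 CPM, and formoterol libraries 171.0, 146.5, 164.2 and 169.3 CPM. Fatty acid libraries measured 119.0, 111.7, 126.2 and 131.6 CPM, and the combination 130.7, 74.96, 146.2 and 141.4 CPM. Formoterol libraries did not overlap those of any other group, fatty acid libraries lay above all controls, and combination replicate 2 lay below all controls. The log2 fold change with formoterol was 0.77 ± 0.13 (SE), with an adjusted p of 0.000781 by edgeR's quasi-likelihood test over all genes. With fatty acids it was 0.36 ± 0.13, and the edgeR adjusted p of 0.0666 did not pass 0.05. In the combination HNF4A averaged 123 ± 32.9 CPM, or 139 ± 7.95 (n = 3) without replicate 2. Against formoterol alone the log2 difference was -0.40 ± 0.13 over all libraries (edgeR adjusted p = 0.0357) and -0.22 ± 0.07 without replicate 2 (edgeR adjusted p = 0.0271). Scaling by total counts alone, which moves the median gene by -0.14 in formoterol against control and by 0.14 in the combination against formoterol, ended this last call, as did leaving out formoterol replicate 1, 3 or 4 or combination replicate 1, or fitting the 2 groups alone.

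NR5A2 rose with each treatment alone. Controls measured 17.61, 16.18, 15.24 and 14.98 CPM, formoterol libraries 29.15, 23.37, 27.43 and 23.19 CPM, and fatty acid libraries 31.46, 26.45, 31.43 and 27.53 CPM. No treated library of these groups overlapped the controls. The log2 fold change was 0.87 ± 0.13 with fatty acids (edgeR adjusted p = 6.36e-05) and 0.69 ± 0.13 with formoterol (edgeR adjusted p = 0.00185). Both calls held whichever library was left out. Combination libraries measured 26.24, 16.01, 27.40 and 24.35 CPM, so that replicate 2 was at the control level and the other 3 were above it. The combination was above control by 0.55 ± 0.13 on the log2 scale (edgeR adjusted p = 0.00519), or by 0.70 ± 0.10 without replicate 2.

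PROX1, a homeodomain corepressor of HNF4A and NR5A2, also rose with each treatment alone. Controls measured 29.79, 37.88, 23.73 and 30.01 CPM, formoterol libraries 55.05, 41.17, 43.53 and 47.13 CPM, and fatty acid libraries 48.13, 44.59, 64.20 and 54.93 CPM. Both treated groups lay above every control. The log2 fold change was 0.80 ± 0.18 with fatty acids (edgeR adjusted p = 0.0040). With formoterol it was 0.62 ± 0.18 (edgeR adjusted p = 0.0330), a call that was lost without 6 of the 16 libraries in turn, with total counts only and with DESeq2. Combination libraries measured 46.90, 22.60, 50.72 and 47.34 CPM, and replicate 2 again lay below all controls.

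With fatty acids the C/EBP factors moved in opposite directions. CEBPA measured 7.514, 5.714, 5.688 and 6.623 CPM in controls, 10.96, 10.25, 10.46 and 11.69 with formoterol, and 11.19, 11.55, 13.32 and 12.16 with fatty acids. The groups did not overlap the controls, and the log2 fold changes were 0.92 ± 0.20 with fatty acids (edgeR adjusted p = 0.00248) and 0.77 ± 0.20 with formoterol (edgeR adjusted p = 0.0161). The formoterol call was lost without control replicate 3 or formoterol replicate 4. In the combination CEBPA measured 9.398, 4.537, 12.6 and 10.3 CPM. CEBPB measured 102.2, 84.98, 114.9 and 108.3 CPM in controls and 82.57, 79.31, 75.59 and 86.18 with fatty acids, which overlapped. Its log2 change with fatty acids was -0.34 ± 0.10 (edgeR adjusted p = 0.0199), a call lost without any of 4 libraries in turn (control replicates 3 and 4, fatty acids replicates 2 and 3). With formoterol CEBPB measured 89.20, 83.62, 73.79 and 108.7 CPM, a log2 difference of -0.21 ± 0.10 that did not pass (edgeR adjusted p = 0.205). CEBPB passed as a fall with total counts only, and without formoterol replicate 4 (-0.32, edgeR adjusted p = 0.0400). In the combination it measured 70.78, 68.11, 78.61 and 73.81 CPM, all below every control, and the log2 change of -0.49 ± 0.10 passed (edgeR adjusted p = 0.00133), also without replicate 2 (-0.46 ± 0.10). CEBPA made up 4.46% ± 0.696 of the summed RPKM of CEBPA and CEBPB in controls, 8.42% ± 0.874 with formoterol, 10.0% ± 1.08 with fatty acids and 8.44% ± 2.58 in the combination, where replicate 2, at 4.72%, lay within the control range of 3.55% to 5.18%. Antisense genes cover 43.4% of the exon bases of CEBPA and 11.8% of those of CEBPB. Those over CEBPA were at 0 counts, and the sources used here do not say how reads shared by 2 genes were counted, so the level of CEBPA may be understated.

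Among the forkhead factors, FOXA1 rose in every treated group. Controls measured 4.129, 3.190, 3.307 and 4.359 CPM. Formoterol libraries measured 5.682 to 6.721 CPM, fatty acid libraries 5.460 to 6.659, and combination libraries 4.937 to 6.875. Each treated library lay above every control, replicate 2 of the combination included. The log2 fold changes were 0.71 ± 0.15 with formoterol (edgeR adjusted p = 0.00445), 0.67 ± 0.15 with fatty acids (edgeR adjusted p = 0.00352) and 0.71 ± 0.15 in the combination (edgeR adjusted p = 0.00254; 0.80 ± 0.16 without replicate 2).

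FOXA2, the most abundant of the forkhead members here, rose with formoterol. It measured 12.92, 11.11, 11.83 and 14.45 CPM in controls and 17.10, 17.69, 17.16 and 18.87 with formoterol, a log2 fold change of 0.49 ± 0.11 (edgeR adjusted p = 0.0062). Fatty acid libraries measured 13.56, 14.23, 14.18 and 14.97 CPM and overlapped the controls (log2 difference 0.18 ± 0.11, edgeR adjusted p = 0.313). Combination libraries measured 15.29, 11.66, 15.98 and 16.84 CPM, all below the formoterol libraries, but the log2 difference from formoterol of -0.25 ± 0.11 did not pass (edgeR adjusted p = 0.130).

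FOXA3 was near the detection limit. Controls held 10, 6, 2 and 7 counts, formoterol libraries 24, 16, 20 and 40, fatty acid libraries 16, 30, 41 and 36, and combination libraries 38, 4, 25 and 22. It passed the filter through the treated groups, since 1 of 4 control libraries but all formoterol and fatty acid libraries exceeded the filter's line of 0.2938 CPM. Fatty acid libraries lay above all controls in CPM, and the fitted log2 difference was 2.26 ± 0.58 (edgeR adjusted p = 0.00984). That of formoterol was 1.74 ± 0.58 (edgeR adjusted p = 0.0615). Because FOXA3 was tested only on account of the groups where it was high, these values describe it and are no support for a change. ONECUT1 held 0 to 20 counts per library and was not tested: it had 0 to 8 counts in controls, 1 to 9 with formoterol, 2 to 20 with fatty acids and 1 to 11 in the combination. Its groups overlapped, and no change was detectable at this depth.

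**Figure D1:**
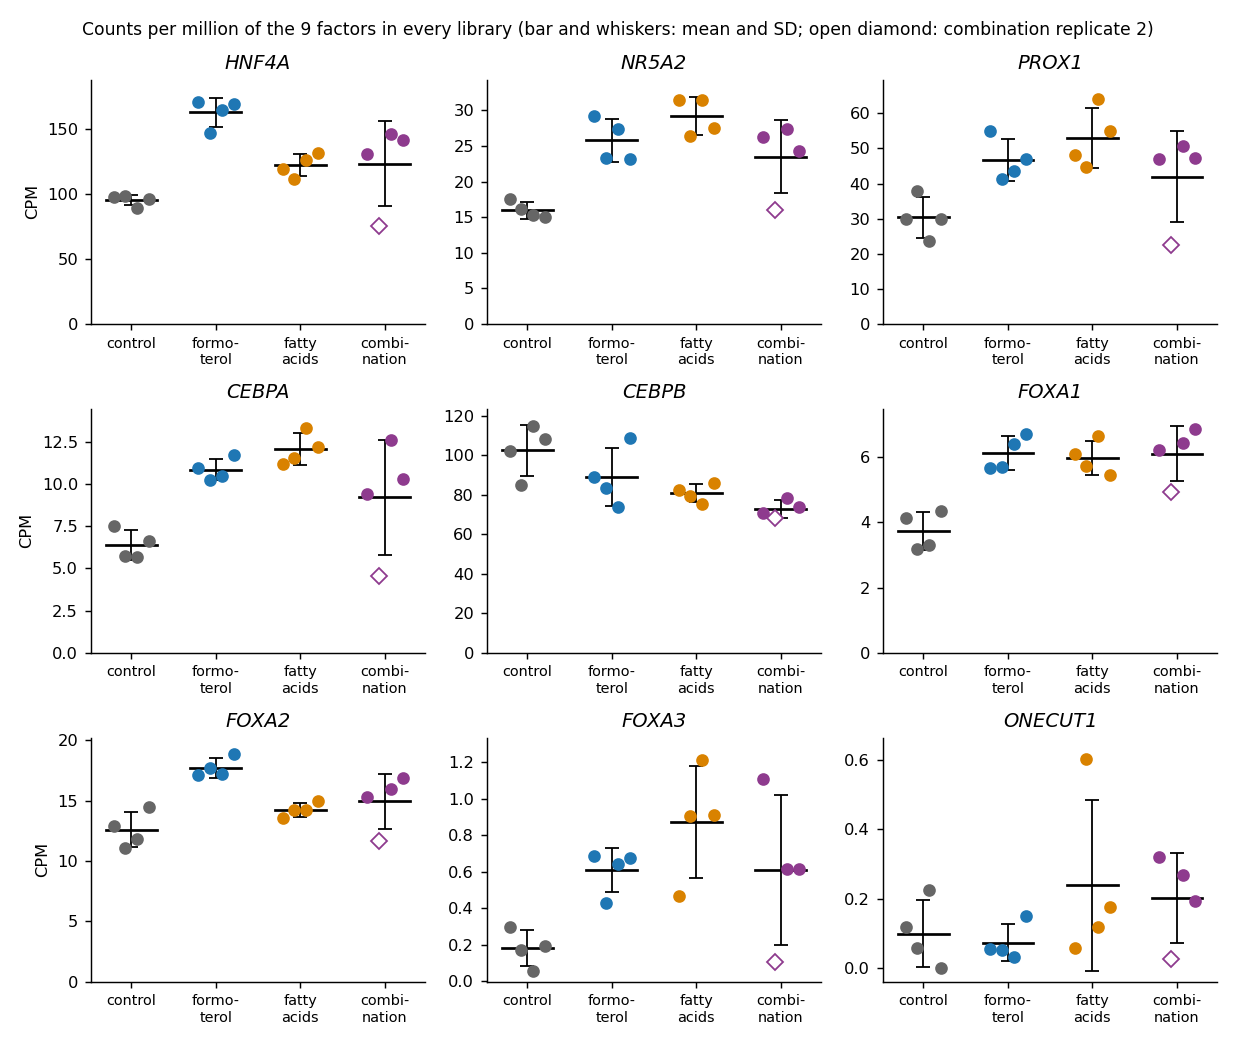
CPM of each factor (linear axes) in the control, formoterol, fatty acid and combination groups, with 1 point per library and the mean ± SD of 4 libraries. HNF4A with formoterol (146.5 to 171.0 CPM) stands above the other groups, and the open diamond, combination replicate 2, is the lowest combination library for all 9 factors.

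Counted over the 8 factors tested at an edgeR adjusted p under 0.05, fatty acids against control gave 5 rises (FOXA1, FOXA3, CEBPA, NR5A2 and PROX1) and 1 fall (CEBPB). Over all 18121 genes 8.93% rose and 7.62% fell. FOXA3 entered the tests through the treated groups; a filter of at least 1 CPM in 4 libraries, which leaves it out, gave 4 rises and 1 fall among 7 factors. Formoterol against control gave 6 rises (HNF4A, FOXA1, FOXA2, CEBPA, NR5A2 and PROX1) and no fall, where 5.76% of all genes rose and 4.57% fell. These comparisons share the control libraries, so the similar set of rises is not independent. Without combination replicate 2, which enters through the shared estimate of the spread, the calls were 6 rises and 1 fall with fatty acids (HNF4A joining). With formoterol they were 7 rises (FOXA3 joining, with the limit given above). Of all 18517 genes tested in that fit, 3587 passed with fatty acids and 2588 with formoterol, in either direction.

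Adding formoterol to fatty acids moved no factor past the threshold: of the 8, 0 rose and 0 fell, where 1.68% of all genes rose and 1.12% fell. DESeq2 also called 0, and at an unadjusted p under 0.05 NR5A2 alone differed, by -0.31 ± 0.13 (edgeR adjusted p = 0.240). HNF4A differed by 0.01 ± 0.13 and FOXA1 by 0.03 ± 0.15 on the log2 scale, while CEBPA was at -0.39 ± 0.19 and PROX1 at -0.34 ± 0.18. Without combination replicate 2 no factor passed either, and the differences were 0.19 ± 0.07 for HNF4A, 0.12 ± 0.16 for FOXA1, -0.17 ± 0.10 for NR5A2, -0.16 ± 0.13 for CEBPA and -0.13 ± 0.12 for PROX1. Adding fatty acids to formoterol gave 2 falls and no rise, where 9.48% of all genes rose and 8.97% fell. The falls were HNF4A, above, and CEBPB (-0.29 ± 0.10, edgeR adjusted p = 0.0459), and the call of CEBPB was lost without any of 12 libraries in turn, combination replicate 2 among them (-0.26 ± 0.10, edgeR adjusted p = 0.0866).

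The combination against control gave 2 rises (FOXA1 and NR5A2) and 1 fall (CEBPB), where 7.58% of all genes rose and 6.68% fell. HNF4A (0.37 ± 0.13, edgeR adjusted p = 0.0627), FOXA3 (1.74 ± 0.58, adjusted p = 0.0506), CEBPA (0.53 ± 0.20, adjusted p = 0.0825), PROX1 (0.47 ± 0.18, adjusted p = 0.101) and FOXA2 (0.25 ± 0.11, adjusted p = 0.155) did not pass. Without combination replicate 2 there were 7 rises and 1 fall, so that each of the 8 tested factors passed, FOXA3 with the limit given above. Of all 18517 genes tested in that fit, 2811 passed in either direction. HNF4A was then at 0.55 ± 0.07 (edgeR adjusted p = 1.22e-06), CEBPA at 0.76 ± 0.14 and PROX1 at 0.67 ± 0.12.

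**Figure D2:**
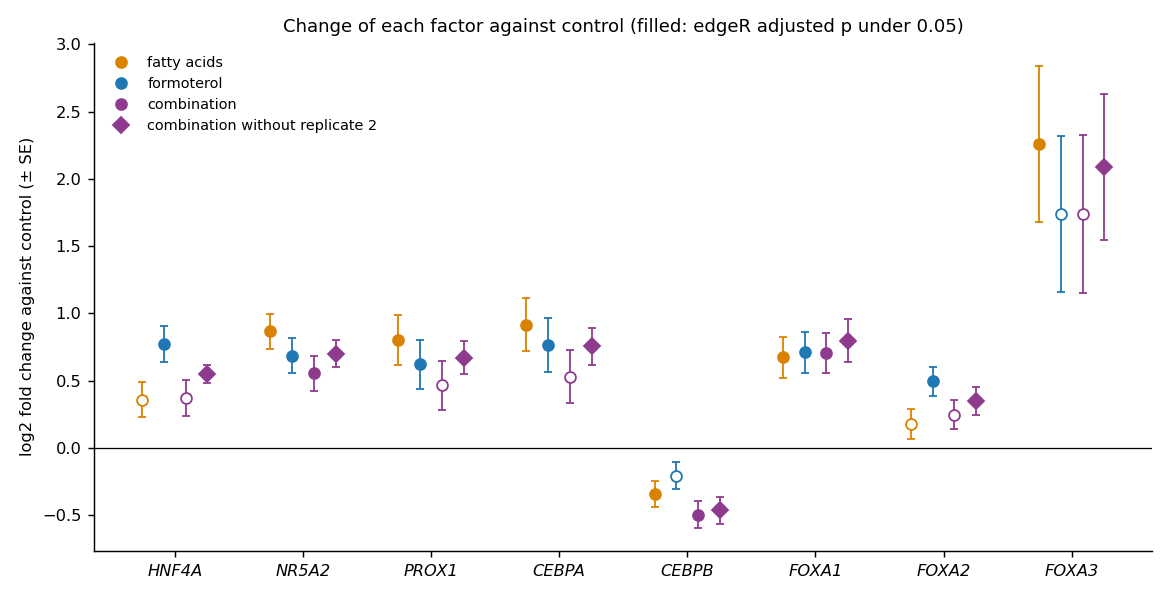
Log2 fold change against control (vertical axis, ± SE from edgeR) of the 8 tested factors under fatty acids, formoterol and the combination, the last also without replicate 2; filled symbols have an adjusted p under 0.05. CEBPB lies below 0 in every comparison and the other 7 lie above it, and all 8 diamonds, for the combination without replicate 2, are filled. Replicate 2 was the lowest combination library for each factor, so filled diamonds above 0 are no support for a rise.

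The interaction asks whether the combination equals the sum, on the log2 scale, of what each treatment did alone. It was below 0 and past the threshold for 4 factors and above for 0, where 2.12% of all genes were above and 3.38% below. The 4 were HNF4A (-0.76 ± 0.18, edgeR adjusted p = 0.0206), CEBPA (-1.15 ± 0.28, adjusted p = 0.0190), NR5A2 (-1.0 ± 0.18, adjusted p = 0.00365) and PROX1 (-0.96 ± 0.26, adjusted p = 0.0319). For NR5A2 the single changes add to 1.55 and the combination stood at 0.55 above control. For HNF4A they add to 1.13 against 0.37, for CEBPA to 1.68 against 0.53, and for PROX1 to 1.43 against 0.47. Without combination replicate 2 the same 4 passed, with HNF4A at -0.58 (edgeR adjusted p = 0.000217), CEBPA at -0.93 (adjusted p = 0.00207), NR5A2 at -0.85 (adjusted p = 0.000224) and PROX1 at -0.75 (adjusted p = 0.00641). Of all 18517 genes tested in that fit, 1026 passed in either direction. Without control replicate 3 only NR5A2 did, as HNF4A reached an edgeR adjusted p of 0.0527 and CEBPA one of 0.0504, and PROX1 was lost in 8 of the 16 fits with a library left out. FOXA1 (-0.68, edgeR adjusted p = 0.0626), FOXA3 (-2.26, adjusted p = 0.0960) and FOXA2 (-0.42, adjusted p = 0.116) were below 0 and did not pass. CEBPB was at 0.05 (edgeR adjusted p = 0.879): its single changes add to -0.55, and the combination stood at -0.49.

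**Figure D3:**
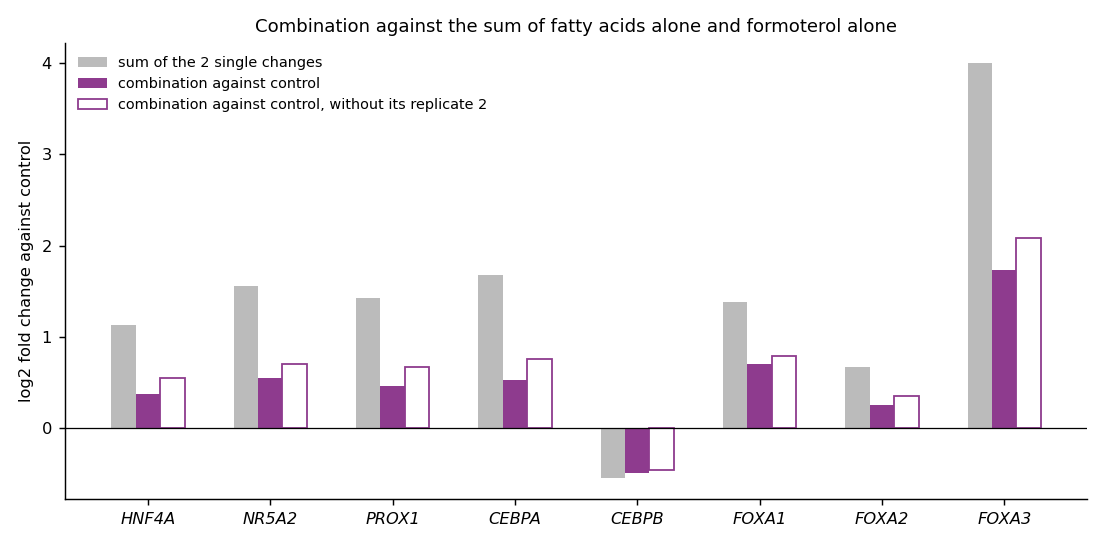
Bars start at 0 and give log2 fold changes against control: the sum of the fatty acid and formoterol changes, the combination, and the combination without its replicate 2. The sum exceeds the combination for 7 factors, as for NR5A2 (1.55 against 0.55), and the bars of CEBPB nearly match (-0.55 against -0.49).

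Between genes, levels were compared as RPKM (CPM per kilobase of the gene length in the table). In controls the order of the mean levels was CEBPB (52.4 RPKM), HNF4A (13.0), FOXA2 (4.83), PROX1 (3.40), CEBPA (2.43), NR5A2 (2.12), FOXA1 (0.941), FOXA3 (0.0824) and ONECUT1 (0.0260). CEBPB (43.45 to 58.72), HNF4A (12.21 to 13.46) and FOXA2 (4.268 to 5.55) did not overlap their neighbours. The control ranges of PROX1 (2.658 to 4.243) and CEBPA (2.162 to 2.856) overlapped, as did those of CEBPA and NR5A2 (1.982 to 2.33) and those of FOXA3 and ONECUT1, so those neighbours are not ordered beyond their spread. Among 1553 genes of annotated transcription factor families, HNF4A ranked 106 in controls, 40 with formoterol, 60 with fatty acids and 63 in the combination. CEBPB ranked 16, 17, 18 and 22, and CEBPA 533, 353, 329 and 405, in the same order of groups. FOXA2 made up 82.6% ± 1.34 of the summed FOXA RPKM in controls, 78.9% ± 1.31 with formoterol, 74.2% ± 2.27 with fatty acids and 76.1% ± 1.54 in the combination.

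**Figure D4:**
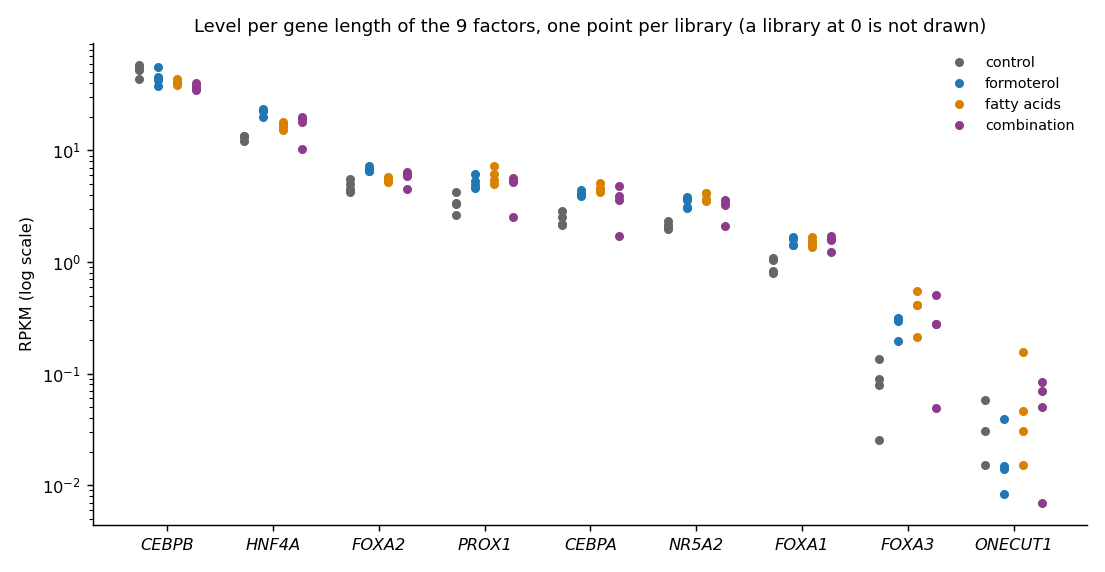
RPKM (log axis) of the 9 factors with 1 point per library, coloured by group; a library at 0 counts is not drawn. Levels run from CEBPB (52.4 RPKM in controls) to ONECUT1 (0.0260), and the low violet points are combination replicate 2.

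Many hepatocyte genes that these factors are known to activate also rose under each treatment alone. Of 30 such genes, 15 rose and 1 fell with fatty acids (median log2 change 0.67), and 18 rose and 0 fell with formoterol (median 0.83). Of all genes 8.93% rose and 7.62% fell with fatty acids, and 5.76% rose and 4.57% fell with formoterol. The median of all tested genes was 0.01 and 0.00 in these comparisons. The list shares 7 genes with the hepatocyte-like markers. Albumin (ALB), the main plasma protein, rose by 0.86 with fatty acids and by 0.93 with formoterol. CPS1, the urea cycle's entry enzyme, rose by 1.47 ± 0.07 with formoterol (edgeR adjusted p = 3.09e-11), and FGB, a fibrinogen chain, by 1.13 ± 0.14. With fatty acids APOB, the structural protein of very low density lipoprotein, rose by 0.80 ± 0.12 (edgeR adjusted p = 5.34e-05), and AHSG (fetuin-A) by 2.30 ± 0.43. The exception was TAT, an amino acid catabolic enzyme induced by glucocorticoid and cAMP, which was at -1.07 with fatty acids and 1.28 with formoterol.

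In the combination against control, 7 of the 30 target genes rose and 3 fell, or 19 and 4 without replicate 2. That library was set apart by markers that share 7 genes with this list, so counts without it are a description. Of all genes 7.58% rose and 6.68% fell over all libraries, so the 3 falls were near the share of all genes. PCK1, the gluconeogenic PEP carboxykinase, rose by 1.07 ± 0.17 (edgeR adjusted p = 0.000111), while the drug-metabolising enzyme CYP3A4 changed by -1.72 ± 0.26 (adjusted p = 6.46e-05), TAT by -1.39 and the bile acid importer SLC10A1 by -0.93. Formoterol added to fatty acids moved 1 up (CPS1, 0.79 ± 0.07) and 2 down (CYP3A4 and F9), or 3 and 3 without replicate 2. There 1.68% of all genes rose and 1.12% fell over all libraries. Fatty acids added to formoterol moved 1 up (APOB) and 11 down, or 2 and 12 without replicate 2, where 9.48% of all genes rose and 8.97% fell over all libraries. TAT was at -2.67 ± 0.32 and CPS1 at -0.85 ± 0.07. The interaction was below 0 and past the threshold for 17 of the 30 and above for 0 (median -1.23), or for 23 without replicate 2 (median -0.95). Over all genes and libraries 3.38% were below and 2.12% above. CYP7A1, the rate-limiting enzyme of bile acid synthesis, was at -2.63 ± 0.45 (edgeR adjusted p = 0.0023), G6PC, the last enzyme of glucose output, at -1.78 ± 0.35, and ALB at -1.39.

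Of 22 other liver-enriched transcription factors, 5 rose and 2 fell with fatty acids (median 0.13), 6 rose and 2 fell with formoterol (median 0.21), and 3 rose and 1 fell in the combination (median 0.16), or 5 and 1 without replicate 2. Of all genes, 8.93% rose and 7.62% fell with fatty acids, 5.76% and 4.57% with formoterol, and 7.58% and 6.68% in the combination. CREB3L3, a membrane-bound liver factor that acts on triglyceride and fasting genes, rose by 1.23 ± 0.13 with fatty acids (edgeR adjusted p = 4.94e-07), 0.67 ± 0.12 with formoterol (adjusted p = 0.00174) and 1.55 ± 0.13 in the combination (adjusted p = 2.15e-08). KLF15, a factor of gluconeogenesis and amino acid breakdown, changed by -0.61 ± 0.07, -0.32 and -0.74 ± 0.07 in the same order. TBX3, a T-box factor of liver development, was at -0.53 ± 0.07 with fatty acids and 0.47 ± 0.07 with formoterol. NR1H4 (FXR), the bile acid receptor, rose by 0.50, 0.81 and 0.45, and its interaction was -0.87 ± 0.21 (edgeR adjusted p = 0.0189).

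Of 15 coregulators of these factors, 2 rose and 2 fell with fatty acids, 0 rose and 1 fell with formoterol, and 1 rose and 2 fell in the combination, also without replicate 2. With so few genes these counts cannot be told from the shares of all genes just given. Scaling by total counts alone gave 0 rises and 6 falls with formoterol. PPARGC1A, the coactivator of HNF4A in fasting, changed by -0.76 ± 0.07 with fatty acids (edgeR adjusted p = 1.02e-07) and -0.56 ± 0.07 in the combination (adjusted p = 6.02e-06). Of 12 biliary and progenitor factors 10 were tested, and 3 rose and 4 fell with fatty acids while 0 rose and 1 fell with formoterol. SOX9, a factor of biliary and progenitor cells, changed by -0.72 ± 0.08 with fatty acids (edgeR adjusted p = 3.18e-06) and -1.12 ± 0.09 in the combination (adjusted p = 7.23e-09), and KLF5 rose by 0.54 ± 0.09 with fatty acids.

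**Figure D5:**
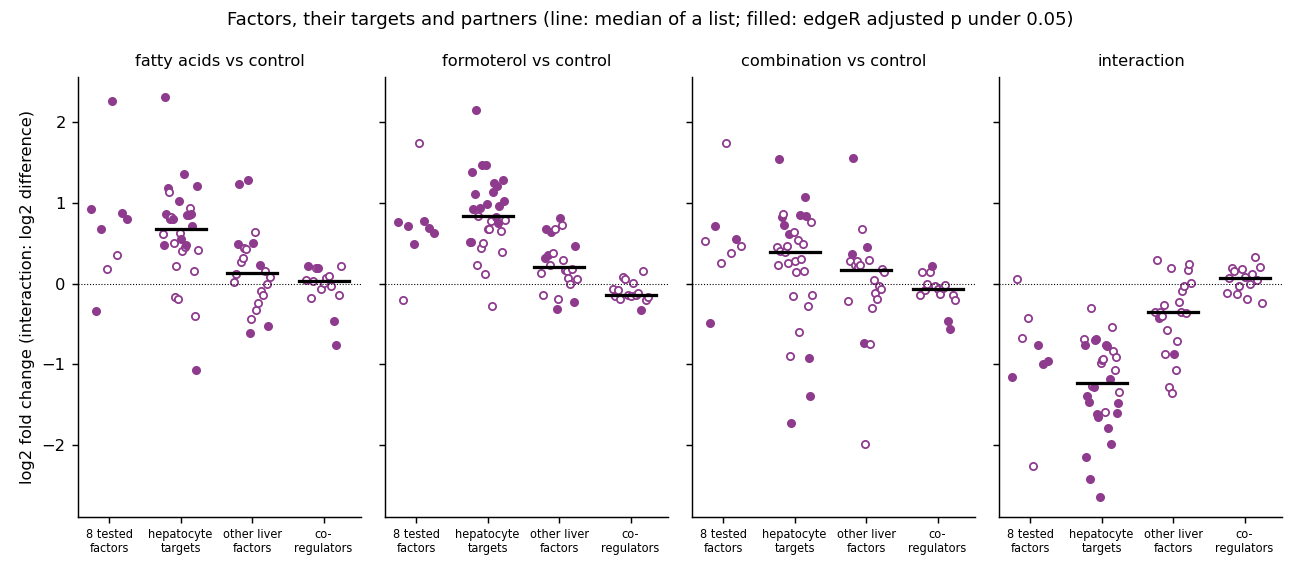
Log2 fold change (vertical axis; for the interaction, the log2 difference from the sum of the single changes) of the 8 tested factors, 30 hepatocyte target genes, 22 other liver factors and 15 coregulators; filled points have an edgeR adjusted p under 0.05, and bars are list medians. The targets have medians of 0.67 and 0.83 under the single treatments and -1.23 in the interaction.

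The genes beside the factors were examined next. HNF4A lies at chr20:44355700-44434596 (GRCh38), and the nearest tested genes on either side are FITM2, an endoplasmic reticulum protein of lipid droplet formation, and TTPAL. FITM2 changed by -0.56 with fatty acids and -0.40 in the combination, and TTPAL by -0.48 with fatty acids and -0.43 with formoterol, where HNF4A was at 0.36 and 0.77. The antisense transcript HNF4A-AS1 overlaps HNF4A, held 0.0199 times its counts and passed in no comparison with control. CEBPA-DT, on the opposite strand with its annotated start 293 bases from CEBPA, held 0.23 times the counts of CEBPA. It was at 0.24 with fatty acids and -0.12 with formoterol, without passing. SYMPK, 699 bases from FOXA3 with 95.95 times its counts, was at -0.18 with fatty acids (edgeR adjusted p = 0.0345). The fitted value of FOXA3 there was 2.26, with the limit given above. LRP3, the nearest tested gene at lower coordinates than CEBPA, rose with fatty acids by 0.42 (edgeR adjusted p = 0.0269) and in the combination by 0.49. The sources used here do not state whether counting was stranded, so reads of a factor and of an antisense partner cannot be told apart. No gene that overlaps a factor held more than 0.0375 times its counts. Shared reads that were dropped or given to the factor would not show in that count, so it does not bound them.

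The genes most alike in course over the 16 libraries, by Pearson's r of log2 CPM among 11558 protein-coding genes of at least 2 CPM, are given as a description. The groups and combination replicate 2 are shared by all points. For HNF4A they were GGCX, the vitamin K-dependent carboxylase (r = 0.983, or 0.978 without combination replicate 2), TMEM176B (0.976 and 0.968) and SHMT2 (0.970 and 0.965). FOXA2 was nearest to TMEM176A (0.972 and 0.974) and to XBP1, a factor of the unfolded protein response (0.947 and 0.944). CEBPA was nearest to ETFDH, a mitochondrial electron transfer enzyme (0.972 and 0.959), and to APOA1, the main protein of high density lipoprotein (0.969 and 0.955). NR5A2 was nearest to LMO7 (0.973 and 0.975) and to the amino acid transporter SLC38A4 (0.964 and 0.961). PROX1 was nearest to SNTB1 (0.969 and 0.958) and ITIH2 (0.968 and 0.961). FOXA1 was nearest to F2RL1 (0.953 and 0.961), FOXA3 had the vitamin C transporter SLC23A1 in both lists (0.944 and 0.938), and CEBPB had ID2 (0.933 and 0.935), an inhibitor of basic helix-loop-helix factors. The genes nearest to ONECUT1 had r of at most 0.783 over 16 libraries, and its low counts make them uninformative.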

How the data were processed

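RNA of 16 HepaRG libraries (4 groups of 4) was measured as poly-A RNA with random-hexamer cDNA, per the labels' protocols. The authors deposited raw gene counts with a gene length per gene. Tools listed in the submitters' processing notes are HISAT2 2.0.5 and DESeq2, and the build listed is that of mouse, mm39. All 58735 gene IDs are human, and 58724 have the start and end of GENCODE release 29, so the counts were read as human. The sources used here do not name the counting program.

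Genes were filtered with edgeR's filterByExpr (minimum count 10), which left 18121, scaled with TMM and fitted with edgeR 4.0.16 quasi-likelihood tests (R 4.3.3; 4 group means, 12 residual degrees of freedom). The 5 pairwise comparisons and the interaction were adjusted by Benjamini-Hochberg over all genes at 0.05. The fit was tested on simulated data. Most-alike genes used log2 CPM with a prior count of 2. Motifs were searched in RefSeq promoter windows (GRCh38.p14). Tables used Python 3.11.15, numpy 2.4.6, pandas 2.3.3 and matplotlib 3.10.9.

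Named genes are the 9 factors, their overlapping and nearest tested genes, up to 3 genes with the smallest adjusted p per list and comparison, and the 3 most alike genes per factor. The examples ALB, SLC10A1, TAT in the fatty acid, formoterol and combination comparisons with control, KLF15 and NR1H4 in comparisons where they were not among the 3, were added after their values were seen. The members and lists were chosen with earlier results of these data known. Alternatives were DESeq2 size factors, total counts, no filter, at least 1 CPM in 4 libraries, DESeq2 1.42.0, each library left out, a block for the replicate number, the 2 groups compared alone, and protein-coding genes. Libraries of a group differed by more than sampling noise, so none were merged. Some genes that the rule names are not reported here.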

Additional observations from a re-analysis of the deposited data

Results flagged for a closer look

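Of 36 sets of 4 libraries (9 factors in 4 groups), 2 held a library far from the other 3 by Dixon's ratio at the 95% critical value, where chance marks about 1 in 20. PROX1 in combination replicate 2 was at 22.6 CPM, with a gap of 0.864 of the range of the group. FOXA3 in formoterol replicate 2 was at 0.428 CPM (16 counts), with a gap of 0.839 of the range.

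The effect of one treatment differed with the other present, by the interaction test in edgeR, for 4 factors. The log2 interaction was -0.76 for HNF4A, -1.15 for CEBPA, -1.0 for NR5A2 and -0.96 for PROX1. In combination replicate 2 the level of HNF4A was 0.538 times the mean of the other 3 libraries, that of CEBPA 0.421 times, NR5A2 0.616 times and PROX1 0.468 times, while CEBPB stood at 0.915 times. Without that library the 4 interactions were -0.58, -0.93, -0.85 and -0.75 and each passed.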

How the results depend on the processing

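Of 143 recomputed counts of changed factors 122 stayed within 1.5 times the value reported, and of 1138 recomputed gene values 45 lost their call, 28 gained one and 0 reversed a called direction. The counts of 6 for fatty acids and 6 for formoterol against control ranged from 5 to 7 and from 4 to 7 with a library left out. Formoterol added to fatty acids went from 0 to 1 with no filter. Fatty acids added to formoterol went from 2 to 0 with total counts only and with the 2 groups alone, to 1 with protein-coding genes, and from 0 to 2 with a library left out. The combination against control went from 3 to 7 with no filter, to 6 with DESeq2, and from 3 to 8 with a library left out, 8 being without combination replicate 2. The interaction went from 4 to between 1 and 4 with a library left out, 1 being without control replicate 3; DESeq2 called 6. The cause was not tested. HNF4A with fatty acids passed under 6 alternatives.

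By the rule that every same-number pair should correlate above 0.1, replicate numbers were not taken to pair the libraries: 9 of 24 same-number pairs did, against 12 of 72 others. Over the 24 the correlation of deviations from group means was -0.293 to 0.256 (median 0.0125), and over the 72 other pairs -0.30 to 0.311. With the replicate number as a block, 7 factors passed for fatty acids, 6 for formoterol, 0 for formoterol added to fatty acids, 2 for fatty acids added to formoterol, 3 for the combination and 4 for the interaction. FOXA3 and ONECUT1, at 0 to 41 counts per library, are limited by depth.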
